A study of Mus musculus with 5 samples.

Results

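Mitochondrial biogenesis depends on a small set of nuclear genes, and 10 of them (Tfam, Tfb1m, Tfb2m, Polg, Polrmt, Nrf1, Gabpa, Esrra, Pprc1 and Ppargc1b) are described here in reprogramming mouse embryonic fibroblasts. They were chosen by symbol, all 10 were matched to a gene ID, and they are 10 of the 29267 genes in the tables. RNA from ICR-strain fibroblasts undergoing reprogramming was sequenced in 5 libraries, 1 per group. At day 4 the groups were cells expressing Flag, the control, and cells expressing CypD (the product of Ppif, a matrix protein that regulates the permeability transition pore). At day 8 the groups were untreated cells, cells given mastoparan (a wasp-venom peptide) and cells given paraquat (a redox-cycling herbicide). The genotype label names CypD for all 3 day-8 groups as well, but Ppif had 90, 95 and 79 counts in the untreated, mastoparan and paraquat libraries against 112 with Flag and 2629 with CypD. The series title concerns genes under control of the mitoflash, a brief burst of fluorescence from a single mitochondrion. Doses, the introduced reprogramming factors and the number of embryos or cultures behind a library are not stated by the labels. With 1 library per group no difference below has a replicate check. Each interval covers counting error only, and may understate it, since reads of an amplified library are not independent molecules.

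The mitochondrial genome is copied and transcribed by proteins that the nucleus encodes. TFAM packages mitochondrial DNA and bends its promoters, POLRMT transcribes from them with TFB2M as the initiation factor, TFB1M methylates the small mitochondrial ribosomal RNA, and POLG is the catalytic subunit of the replicative DNA polymerase. The nuclear transcription factors NRF1 (nuclear respiratory factor 1, encoded by a different gene from Nfe2l1 and Nfe2l2), GABPA (the DNA-binding subunit of the ETS-family factor also called NRF-2) and the orphan receptor ERR-alpha (Esrra) bind many genes of respiration and of this machinery. They work with the PGC-1 family of coactivators, of which Pprc1 and Ppargc1b encode PRC and PGC-1-beta. PRC is the family member linked to serum response and growth in cultured fibroblasts.

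The promoters of several of these genes carry short motifs of the factors in the same set, and the stretches that hold them are printed below. RefSeq promoter sequences (GRCm38.p6) were matched for 9 of the 10 genes, and a window from 140 bases before to 30 bases after the start was searched on both strands. The core GCATGCG of the NRF1 motif was found in Esrra, Gabpa, Polrmt and Tfb2m, and in 2.61% of 32851 promoters. The ETS core CCGGAAG was found in Gabpa, Polg, Polrmt and Tfam, and in 6.97% of promoters. AAGGTCA, the core element of ERR-type receptors, was in none of the 9 and in 2.51% of promoters. The motif letters were settled with the sequences in view, so these shares do not test a link. A match is a description of the letters, not a binding site. In the lines below capitals mark the NRF1 and ETS matches, and each stretch of 170 bases is written 5′ to 3′ along the gene's strand. They lie at chr10:71238015-71238184 (Tfam, minus strand), chr10:79746552-79746721 (Polrmt, minus), chr1:179546247-179546416 (Tfb2m, minus), chr7:79466244-79466413 (Polg, minus), chr19:6921779-6921948 (Esrra, minus) and chr16:84834984-84835153 (Gabpa, plus).
Tfam: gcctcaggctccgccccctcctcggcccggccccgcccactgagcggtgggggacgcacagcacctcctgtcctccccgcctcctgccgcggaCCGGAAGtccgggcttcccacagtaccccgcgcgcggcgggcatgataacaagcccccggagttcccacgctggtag
Polrmt: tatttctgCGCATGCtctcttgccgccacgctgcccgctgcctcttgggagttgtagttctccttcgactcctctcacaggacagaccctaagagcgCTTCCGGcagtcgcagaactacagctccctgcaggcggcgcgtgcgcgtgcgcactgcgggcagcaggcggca
Tfb2m: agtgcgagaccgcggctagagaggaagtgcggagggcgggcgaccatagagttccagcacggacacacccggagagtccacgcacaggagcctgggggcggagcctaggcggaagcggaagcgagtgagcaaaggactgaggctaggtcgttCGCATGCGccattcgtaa
Polg: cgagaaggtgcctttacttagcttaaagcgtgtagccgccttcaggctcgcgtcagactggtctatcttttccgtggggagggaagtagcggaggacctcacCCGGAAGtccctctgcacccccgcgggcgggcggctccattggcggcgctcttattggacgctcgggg
Esrra: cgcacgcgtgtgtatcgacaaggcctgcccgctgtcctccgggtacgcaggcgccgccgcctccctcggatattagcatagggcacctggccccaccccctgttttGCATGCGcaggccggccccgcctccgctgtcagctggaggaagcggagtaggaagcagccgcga
Gabpa: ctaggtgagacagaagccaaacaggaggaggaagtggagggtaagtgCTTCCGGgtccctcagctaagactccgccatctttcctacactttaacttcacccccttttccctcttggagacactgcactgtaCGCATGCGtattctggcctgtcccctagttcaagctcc
In Tfb2m and Gabpa the NRF1 core overlaps itself on the opposite strand, which makes 1 run of capitals from 2 matches. The NRF1 core begins 34 bases before the start in Esrra and 132 before it in Polrmt, and the ETS core begins 47 bases before the start in Tfam, 38 in Polg, 43 in Polrmt and 93 in Gabpa.

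Library totals after rounding ran from 2425950 counts (paraquat) to 3426650 (CypD), so 3 counts equal between 0.869 and 1.30 CPM. CPM here means counts for each 1000000 reads of a library scaled by TMM factors. The labelled cell type was met by its markers: 10 of 10 fibroblast genes were detected in every library, with a summed level between 6562 and 7083 CPM. Summed over 6 genes, epithelial markers were at 149 and 163 CPM at day 4 (Cldn7 at 0 with Flag) and between 429 and 501 CPM at day 8. Blood and immune markers summed to at most 17.8 CPM and muscle markers to at most 6.50 CPM, with Adgre1, Hba-a1, Myod1 and Myog at 0 in every library. Endothelial markers summed to between 48.5 and 60.7 CPM with Cdh5 at 0 in every library, and neural markers to between 135 and 222 CPM. In bulk RNA fewer cells of a type and less RNA per cell cannot be told apart, and the part of these shifts in the results below was not tested.

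All 10 genes passed the filter of a mean of 1 CPM in every comparison, and 9 of them also had a mean of 10 CPM. Per length, in deposited TPM, Tfam had the highest median level of the 10 over the 5 libraries at 50.3 (range 40.5 to 82.4). Esrra followed at 47.4 (34.2 to 60.6), Polg at 46.6 (28.2 to 58.4), Pprc1 at 38.3 (27.0 to 52.8), Polrmt at 35.9 (26.0 to 49.8) and Nrf1 at 27.1 (19.5 to 32.2). Tfb2m at 17.8 TPM (8.10 to 20.4), Tfb1m at 16.7 (10.4 to 21.2) and Gabpa at 14.3 (7.66 to 15.2) came next. Each of these ranges overlaps its neighbour's. Within each library, though, Polrmt lay above Nrf1, Nrf1 above Tfb2m and Tfb1m above Gabpa. The remaining steps down to Gabpa turned in at least 1 library. Only the range of Ppargc1b stood clear of its neighbour's. Its median was 0.94 TPM (0.57 to 1.82), and it rests on 4 to 14 counts in a library. The other PGC-1 gene, Ppargc1a, which encodes the founding coactivator of the family, had 0 to 3 counts in each library, at or under the floor of 3 counts.

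Taken in TMM-scaled CPM, the summed counts of the 10 genes were 507 (exact Poisson 95% interval 480 to 536) in the Flag library and 516 (492 to 540) in the CypD library. At day 8 they were 410 (388 to 433) in the untreated library, 372 (350 to 395) with mastoparan and 349 (325 to 374) with paraquat. The sum was thus alike at day 4 and lower in all 3 day-8 libraries, with paraquat lowest.

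Tfam, the mitochondrial DNA packaging factor (chromosome 10, 71225464 to 71238280, minus strand), was at 65.9 CPM with Flag, 82.5 with CypD, 52.9 in the untreated day-8 library, 49.8 with mastoparan and 63.3 with paraquat. It was highest with CypD. Polrmt, the mitochondrial RNA polymerase (chromosome 10, 79736123 to 79746581), was at 52.9, 44.3, 32.1, 33.7 and 26.9 CPM in the same order. Both day-4 libraries lay above all 3 at day 8, and paraquat was lowest. Tfb2m, the initiation factor (chromosome 1, 179528055 to 179546267), was at 28.4, 33.9, 22.4, 28.1 and 16.5 CPM, lowest with paraquat. Tfb1m, the rRNA methyltransferase (chromosome 17, 3519256 to 3557781), was at 16.6, 14.5, 18.8, 15.4 and 11.3 CPM. Here the untreated day-8 library was highest and paraquat again lowest, from 26 to 58 counts a library. Polg, the replicative polymerase (chromosome 7, 79446231 to 79466362), was at 89.6, 79.1, 63.9, 53.0 and 54.6 CPM. The day-4 libraries lay above all 3 day-8 libraries, and the treated libraries lay below the untreated.

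Among the nuclear transcription factors, Nrf1 (chromosome 6, 30047988 to 30153458) was at 51.7 CPM with Flag, 45.2 with CypD, 43.5 untreated, 35.4 with mastoparan and 36.4 with paraquat. Gabpa (chromosome 16, 84834925 to 84863779) was at 47.0, 51.3, 48.0, 40.7 and 32.1 CPM, with the first 3 close together and paraquat lowest. Esrra (chromosome 19, 6910977 to 6921813) had the smallest ratio of highest to lowest scaled CPM of the 10 (1.34), at 61.6, 82.5, 70.7, 62.8 and 63.7 CPM, with CypD highest. Pprc1, the growth-linked coactivator (chromosome 19, 46044886 to 46072915), was at 90.4, 78.5, 55.5, 50.9 and 42.5 CPM, both day-4 libraries above all 3 at day 8. Ppargc1b (chromosome 18, 61298136 to 61400431) was at 3.16, 4.05, 2.27, 2.46 and 1.73 CPM, and the interval of each library overlaps those of the other 4.

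**Figure D1:**
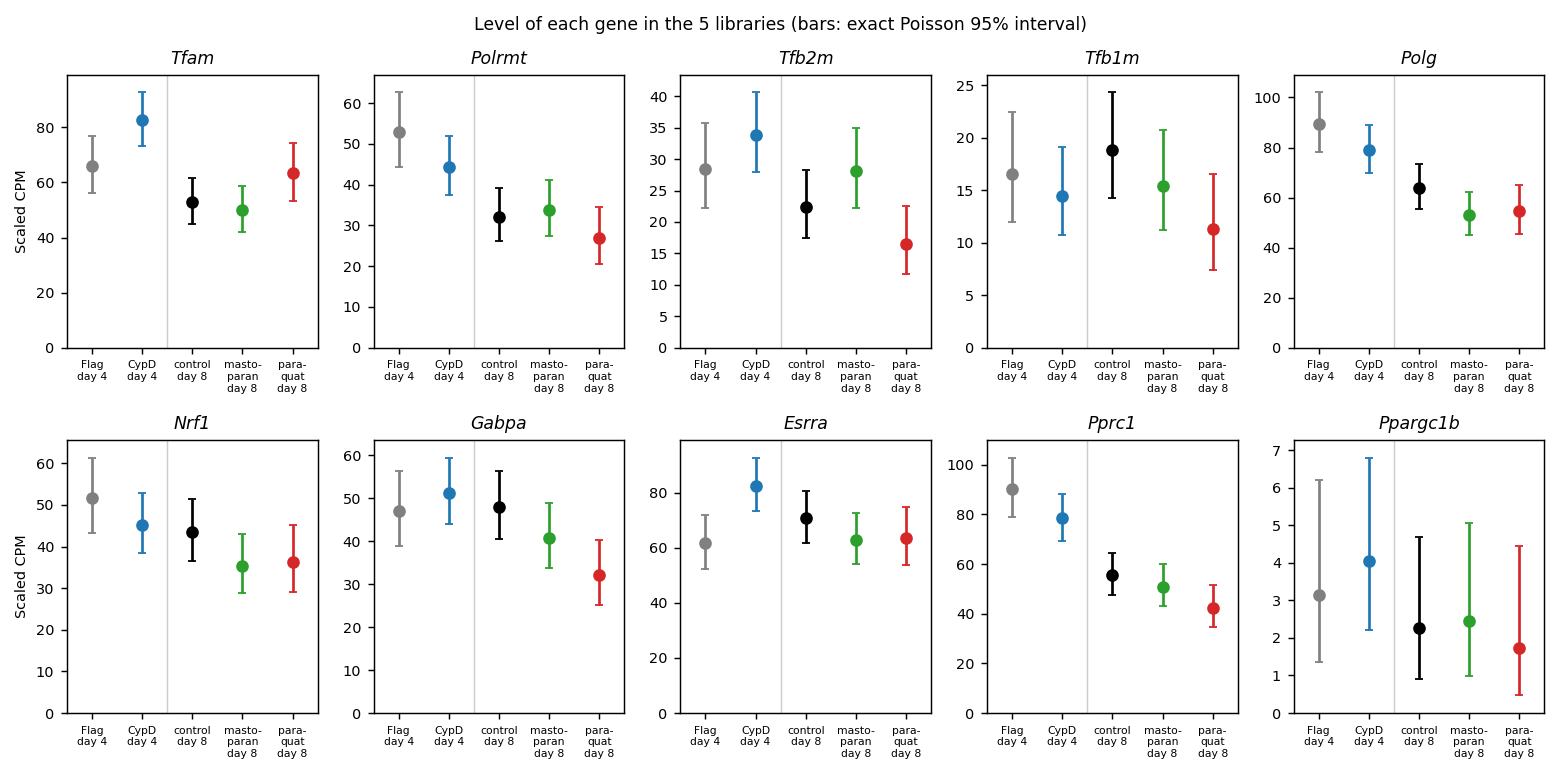
Scaled CPM of each gene (y axis, from 0) in the 5 libraries (x axis, 1 point each), with exact Poisson 95% intervals as bars and a grey line between day 4 and day 8. Pprc1, Polg and Polrmt are higher in both day-4 libraries, Tfam and Esrra peak at 82.5 CPM with CypD, and Tfb1m, Tfb2m, Gabpa, Polrmt and Pprc1 are lowest with paraquat.

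The first comparison asks what differs when CypD is expressed for 4 days. Esrra and Tfam were the higher pair. Esrra had 285 counts with CypD and 156 with Flag, which is 1.34-fold higher (95% interval 1.10 to 1.64). Tfam had 285 against 167 counts, 1.25-fold higher (1.03 to 1.53). These were the 2 of 10 genes whose counting interval lay off 1, as it did for 9.34% of the genes with a mean of 10 CPM. Tfb2m was 1.19-fold higher (0.882 to 1.62), while Polrmt, its partner at the promoter, was 1.19 times lower (0.939 to 1.51) and Polg 1.13 times lower (0.946 to 1.36). Since the intervals of Tfb2m, Polrmt and Polg cover 1, their side is not settled by these counts. Of the 10 genes 5 lay above and 5 below a log2 ratio of 0. Their median was -0.03 beside -0.02 over 13244 genes, of which 47.0% lay above 0. None of the 10 was past 1.5-fold, the size used for counting here, where 11.0% of all genes were. Among 9595 genes with a mean of 10 CPM, 0.928% were past it upward and 1.27% downward.

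The second comparison asks the same of mastoparan at day 8. The 10 genes lay near the untreated library, and no gene was past 1.5-fold or had an interval off 1, as 8.13% of the genes with a mean of 10 CPM had. Tfb2m had 80 against 69 counts, 1.25-fold higher (0.898 to 1.76). Nrf1 had 101 against 134 counts, 1.23 times lower (0.940 to 1.60), Tfb1m was 1.22 times lower (0.809 to 1.85) and Polg 1.21 times lower (0.971 to 1.501). In all 3 genes lay above 0 and 7 below, with a median log2 ratio of -0.15 beside 0.01 over 13640 genes, 51.3% of which lay above 0. Of all genes 11.0% were past 1.5-fold, and of 9883 with a mean of 10 CPM 0.870% were past it upward and 1.11% downward. On deposited TPM the direction of the group turned, with 6 genes above 0, 4 below and a median of 0.02, where the median of all genes was -0.04.

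The third comparison sets paraquat against the untreated library. The genes were lower as a group, with 9 of 10 below the untreated library and a median log2 ratio of -0.28, beside -0.03 over 13666 genes of which 47.5% lay above 0. Tfb1m had 26 against 58 counts, 1.67 times lower (1.03 to 2.76), and was the only gene past 1.5-fold. Of all genes 18.7% were past that fold, and of 9816 with a mean of 10 CPM 5.25% were lower and 3.99% higher by it, so 1 gene in 10 is near the background. Gabpa had 74 against 148 counts, 1.497 times lower by ratio of scaled counts (1.13 to 2.01), a log2 ratio of -0.57 just inside the limit of 0.585. Its partner gene Gabpb1, which encodes the activating subunit of the same complex, had 42 against 80 counts (1.43 times lower, 0.970 to 2.12). Pprc1 had 98 against 171 counts, 1.31 times lower (1.01 to 1.69). Tfb1m, Gabpa and Pprc1 were the 3 of 10 genes whose interval lay off 1. The share of all genes with such an interval was not computed for this comparison, so that count has no background. With library totals in place of TMM factors, Gabpa too was past 1.5-fold, at -0.68.

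Tfam was the exception on scaled counts. On deposited TPM its log2 ratio was -0.31, and Pprc1 was the 1 gene above 0, at 0.06. Tfam had 146 against 163 counts, which is 1.20-fold higher in the paraquat library after scaling (0.9504 to 1.51). Its transcription partners Polrmt and Tfb2m were 1.20 times lower (0.862 to 1.67) and 1.36 times lower (0.902 to 2.08). Each of these intervals covers 1. Tfb2m shares 32.1% of its 49-base windows with Gm1818, so its counts are uncertain. Gm1818 had 10 counts in the paraquat library and 0 in each of the other 4. With both summed, an alternative added after seeing the data, Tfb2m was 1.076 times lower (0.734 to 1.59), a log2 ratio of -0.10 in place of -0.43. The other 9 genes shared at most 6.94% of such windows with another gene (Tfb1m with Tiam2). Polg, Gabpa, Tfb1m, Esrra and Pprc1 overlap exons of a neighbour on the opposite strand (Fanci, Atp5j, Tiam2, Trmt112 and Ldb1), over 8.57% of exon bases at most, and the strand setting of the counting is not given in the sources used here.

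Transcript length moved with the paraquat comparison. The 342 genes with the shortest transcripts (median 491 bases) had a median log2 ratio of 0.53 and the 342 with the longest (median 9356 bases) one of -0.24. With the median of 40 length bins subtracted, the 10 genes still stood at 9 below and 1 above 0, with a median of -0.24. Tfb1m was then at -0.85, Gabpa at -0.36, Pprc1 at -0.32, Polrmt at -0.33 and Tfam at 0.18.

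The mastoparan and paraquat libraries were also set against each other. Tfb2m had 80 against 38 counts, 1.71-fold higher with mastoparan (1.15 to 2.58), the only gene past 1.5-fold. Summed with Gm1818 it was 1.35-fold higher (0.932 to 1.97), and no gene was past 1.5-fold. Tfam was 1.27 times lower with mastoparan (1.001 to 1.61). There were 6 genes above and 4 below 0, with a median of 0.29 beside 0.02 over 13680 genes, 51.8% of which lay above 0. With library totals Polg, Esrra and Nrf1 lay above 0 as well, so that the count of 6 rests on the scaling. On TPM 9 genes lay above 0 and 1 below, with a median of 0.43 (0.22 over all genes), and Tfam turned to 0.31 from -0.34 on counts. With the length trend of this comparison removed (-0.44 for the shortest and 0.14 for the longest transcripts), the median of the 10 genes was 0.19. Past 1.5-fold were 17.0% of all genes, and 4.45% upward and 2.79% downward of 9779 with a mean of 10 CPM. Both treated libraries were compared with the same untreated library, so those 2 comparisons are not independent of each other.

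**Figure D2:**
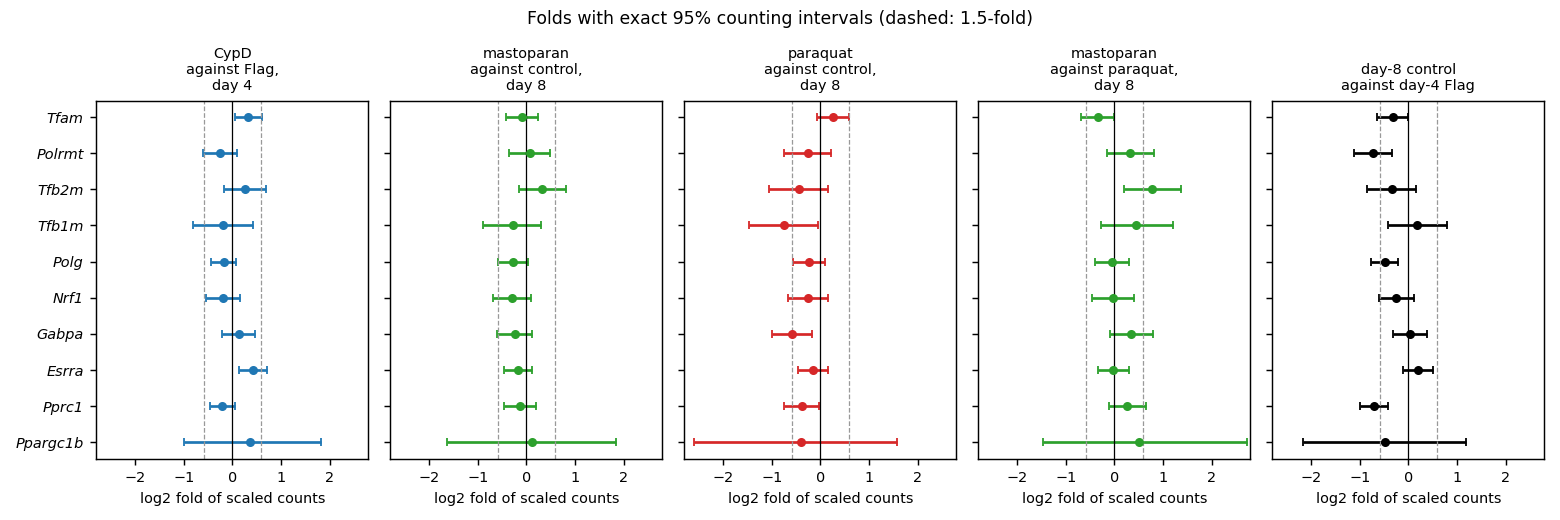
Log2 fold of scaled counts (x axis) for each gene (rows) in the 5 comparisons, with exact 95% counting intervals as bars and dashed lines at 1.5-fold. With paraquat 9 of 10 points lie left of 0 and Tfam lies right of it. In the last panel Polrmt, Pprc1 and Polg lie left of 0 with their whole interval. The share of all genes with such an interval was not computed for that panel, where 31.5% of all genes were past 1.5-fold.

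The 2 control libraries, untreated at day 8 and Flag-expressing at day 4, differ in day, genotype label and treatment together, which cannot be told apart. Pprc1 had 171 against 229 counts, 1.63 times lower at day 8 (1.33 to 1.998), and Polrmt had 99 against 134, 1.65 times lower (1.26 to 2.16). Polg had 197 against 227 counts, 1.40 times lower (1.15 to 1.71). Tfam was 1.25 times lower (0.999 to 1.56), whereas Esrra (1.15-fold higher, 0.931 to 1.42) and Tfb1m (1.13-fold higher, 0.7499 to 1.73) lay on the other side. In sum 3 genes lay above 0 and 7 below, with a median log2 ratio of -0.33 beside 0.00 over 13540 genes, of which 50.0% lay above 0. Polrmt and Pprc1, 2 of 10, were past 1.5-fold. Of all genes with a mean of 1 CPM, 31.5% were past that fold. Among the 9774 with a mean of 10 CPM, as 9 of the 10 genes have, 10.5% were lower and 11.6% higher by it.

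The deposited TPM did not always rank the libraries as the counts did. TPM divides by transcript length, and the tables give a mean length separately for each library, but the cause of the differences was not tested. Pprc1 shows the gap most plainly. Its mean length was 3309 bases with Flag and 3008 in the untreated day-8 library, but 2195 with CypD, 1893 with mastoparan and 1833 with paraquat. Its TPM was 41.4 with Flag and 52.8 with CypD, and 27.0, 38.3 and 28.1 in the untreated, mastoparan and paraquat libraries. The log2 ratio on TPM was 0.35 for CypD against Flag, 0.497 for mastoparan and 0.06 for paraquat, where counts gave -0.20, -0.12 and -0.38. The tables hold 12 transcripts for this gene, and the part that the sharing of reads among them had in this was not tested.

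Tfam turned the other way. Its mean length was 1892 bases with paraquat and between 1428 and 1566 in the other 4 libraries, and its TPM was 40.5 with paraquat against 50.1 untreated. That is a log2 ratio of -0.31 on TPM against 0.26 on counts, beside a median of all genes of -0.28 on TPM. Polg had a mean length of 2653 bases with mastoparan against 2016 untreated, and its log2 ratio was -0.72 on TPM against -0.27 on counts. Tfb1m, with 1 transcript in the tables and the same 1327 bases in every library, had -0.996 on TPM and -0.72 on counts for paraquat, where all genes had medians of -0.28 and -0.03. On TPM 4 of the 10 genes were past 1.5-fold lower with paraquat, Tfb1m, Gabpa, Tfb2m and Polg, where 22.1% of all genes were. The share of higher genes among all those past that fold was 16.9% on TPM against 43.9% on TMM-scaled counts and 31.2% with library totals. The same share for mastoparan against paraquat was 54.6% on scaled counts, 64.5% with library totals and 77.0% on TPM.

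**Figure D3:**
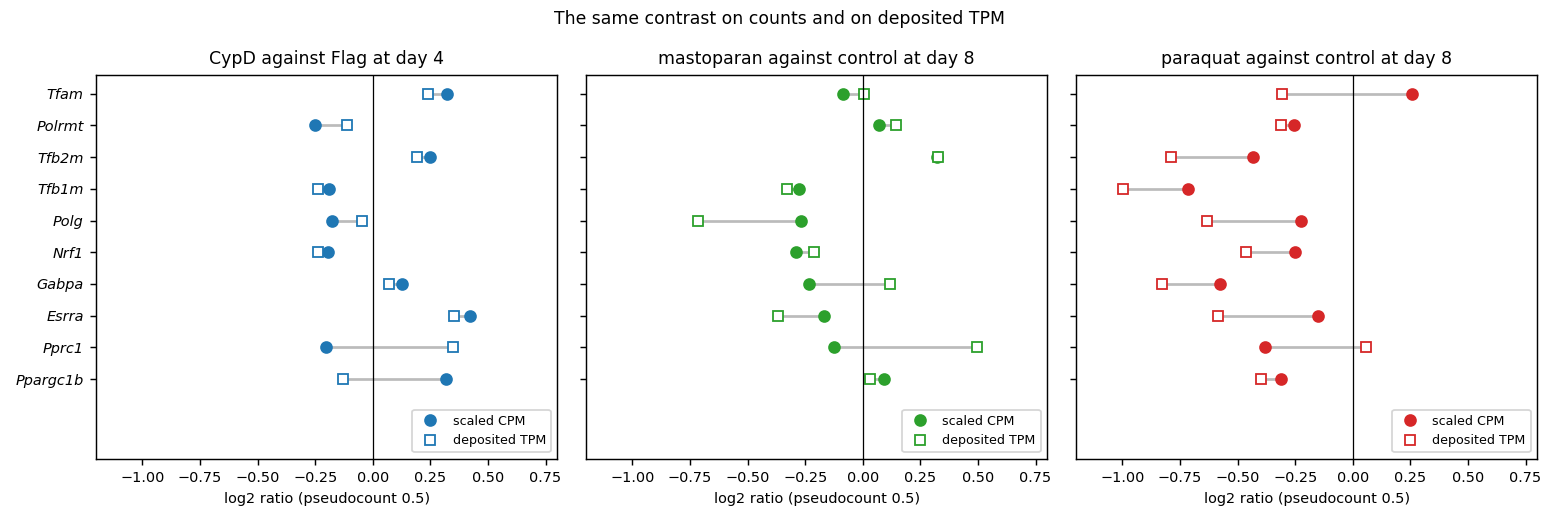
Log2 ratio of each gene (rows) on scaled CPM (filled circles) and on deposited TPM (open squares) in the comparisons with a control, both with a pseudocount of 0.5. The symbols lie on opposite sides of 0 for Pprc1 in all 3 panels, for Ppargc1b with CypD, for Gabpa and Tfam with mastoparan, and for Tfam with paraquat (0.26 on CPM and -0.31 on TPM).

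Other genes of the same processes were taken from lists set by function, with earlier results of these data known. None of 13 listed mitochondrially encoded mRNAs matched a gene by symbol, so they were not analysed here. Prorp and Mpv17, listed for RNA processing and nucleotide supply, were not matched either. Over all genes, 47.0% lay above 0 with CypD, 51.3% with mastoparan and 47.5% with paraquat, with medians of -0.02, 0.01 and -0.03. Past 1.5-fold were 11.0%, 11.0% and 18.7% of all genes in that order. Of 14 genes of mitochondrial DNA replication and the nucleoid, 5 lay above and 9 below 0 with CypD (median -0.02), 4 and 10 with mastoparan (median -0.07), and 7 and 7 with paraquat (median 0.00, or -0.08 with the length trend removed). Polg2, the accessory subunit of the polymerase that Polg encodes, was the 1 gene past 1.5-fold in those comparisons. It had 51 counts with paraquat and 41 untreated (1.66-fold higher, 1.08 to 2.57), while Polg itself was 1.17 times lower (0.931 to 1.48). The helicase gene Twnk and the single-strand binding protein gene Ssbp1 are in the list and were not past that fold.

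Of 20 genes of mitochondrial transcription and RNA processing, 14 lay above 0 with CypD (median 0.15), 10 with mastoparan (median -0.01) and 9 with paraquat (median -0.04). With the length trend removed these medians were 0.07, -0.05 and -0.07. Tefm, the elongation factor of the mitochondrial polymerase, had 54 against 28 counts with CypD (1.42-fold higher, 0.881 to 2.32), and Lrpprc, which stabilises mitochondrial mRNAs, was 1.25 times lower (1.04 to 1.499). With paraquat 3 were past 1.5-fold higher and 1 lower, or 1 higher and 2 lower with the length trend removed. Of all genes 18.7% were past that fold with paraquat, and 11.0% with CypD and with mastoparan. Slirp, the binding partner of LRPPRC, was 1.55-fold higher (1.29 to 1.86), yet its log2 ratio of 0.63 was 0.09 with the length trend removed. Mterf3, of the termination factor family, was 1.57-fold higher (1.09 to 2.26), a log2 ratio of 0.63 that was 0.50 and inside the limit with the trend removed. Fastkd5, an RNA processing factor, was 1.83 times lower (1.04 to 3.36). Mterf1a was the other gene past the fold, from 29 against 24 counts. It has a near copy, Mterf1b, so both are uncertain. They were the genes past the fold with CypD, Mterf1a lower from 14 against 19 counts and Mterf1b higher from 7 against 2. With mastoparan Mterf1b was lower from 13 against 25 counts, and Fastkd3 was 1.65-fold higher (0.922 to 3.01) from 32 against 21 counts.

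Nucleotide supply to mitochondrial DNA was represented by 10 genes, none past 1.5-fold in the comparisons with a control at the same day. Of these 5 lay above 0 with CypD (median 0.02), and 7 with mastoparan (median 0.16) and with paraquat (median 0.15). Over all genes the shares above 0 were 47.0%, 51.3% and 47.5% in that order, and the medians -0.02, 0.01 and -0.03. Slc25a33, a pyrimidine nucleotide carrier, was 1.40-fold higher with mastoparan (0.895 to 2.19), and the deoxyguanosine kinase gene Dguok 1.35-fold higher with paraquat (0.983 to 1.86), a log2 ratio of 0.43 that was 0.19 with the length trend removed. Among 21 regulators and partners of the coactivators, 16 were measured with CypD and 13 of them lay below 0 (median -0.10), or 11 with the length trend removed (median -0.05). The AMP-activated kinase subunit gene Prkaa1 was 1.34 times lower (1.01 to 1.77) and Gabpb1 1.43-fold higher (1.02 to 2.02). With paraquat 12 of 16 lay below 0 (median -0.15), but 8 of 16 with the length trend removed (median -0.01). Among the lowest were the deacetylase gene Sirt1, at -0.50 from 15 against 29 counts, and Gabpb1 at -0.50. With mastoparan 9 of 17 lay above 0 (median 0.00), and Perm1 was the 1 gene past 1.5-fold, from 6 against 2 counts.

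**Figure D4:**
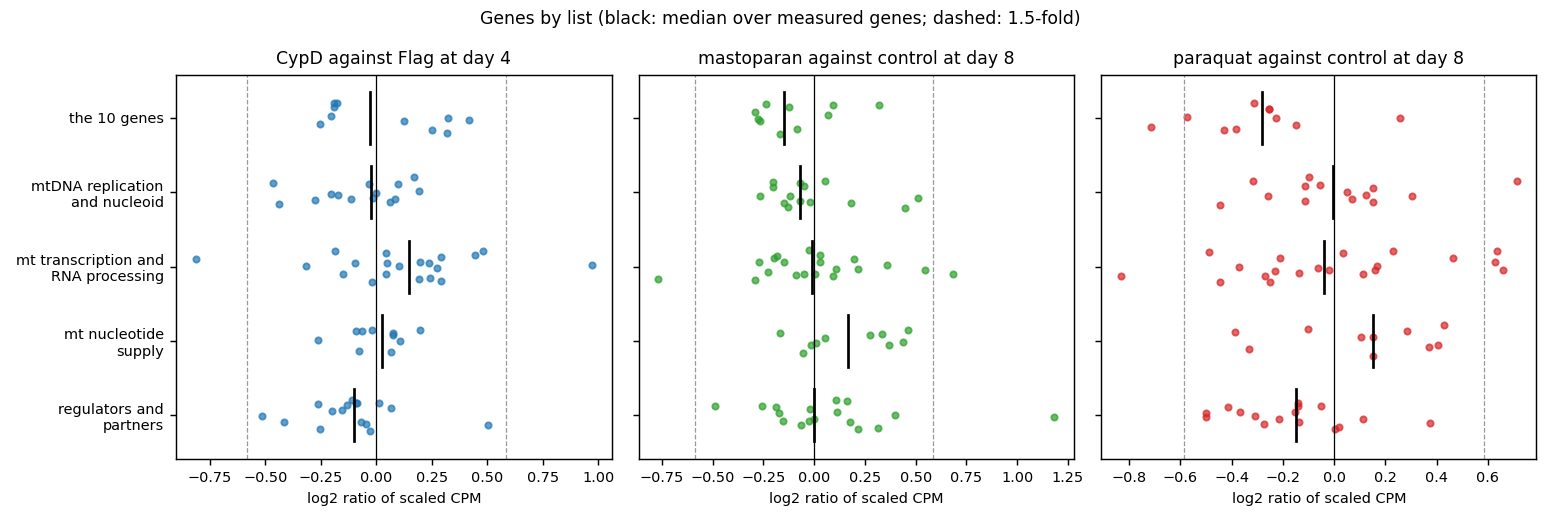
Log2 ratio of scaled CPM (x axis) for the 10 genes and the measured genes of 4 lists (rows, 1 point a gene), with the median as a black bar and dashed lines at 1.5-fold, in the comparisons with a control. With paraquat the median of the 10 genes is -0.28, beside 0.00 for replication, -0.04 for transcription and RNA processing, 0.15 for nucleotide supply and -0.15 for regulators, and with the length trend removed -0.24 beside -0.08, -0.07, 0.14 and -0.01.

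Between mastoparan and paraquat, 16 of 17 regulators lay above 0 (median 0.23 beside 0.02 over all genes, of which 51.8% lay above 0), or 14 of 17 with the length trend removed (median 0.10). Trmt10c, a subunit of mitochondrial RNase P, was 1.67-fold higher (1.18 to 2.399). Between the day-8 and day-4 controls, 1 of the 14 replication genes was past 1.5-fold higher and 3 lower. Of all genes 31.5% were past it, with 11.6% higher and 10.5% lower among 9774 with a mean of 10 CPM. Primpol, a primase and polymerase of nucleus and mitochondrion, had 75 counts in the untreated day-8 library and 20 with Flag (3.08-fold higher, 1.86 to 5.33). The nuclease gene Dna2 was 3.01 times lower (1.68 to 5.63), the flap endonuclease gene Fen1 1.79 times lower (1.46 to 2.204) and the topoisomerase gene Top3a 1.73 times lower (1.16 to 2.59). These 3 also act in nuclear DNA replication or repair. Tefm was 1.64-fold higher (1.03 to 2.69), and Sirt1 2.18 times lower (1.36 to 3.56).

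The genes whose profile over the 5 libraries lay nearest to that of a member were sought among 7932 others with a mean of 20 CPM, as the root mean square difference of centred log2 levels. Pprc1 lay nearest to Dnmt1, the maintenance DNA methyltransferase gene (0.04), then Hyou1 and Cherp. Dnmt1 was at 262, 234, 162, 150 and 118 CPM in the library order used above. Tfam lay nearest to the kinetochore gene Spc24 (0.04), then Rab23 and Ddhd2, and Polrmt to the actin crosslinker gene Actn1 (0.04), then Ndc1 and Ppip5k2. The nearest gene was Gas2l1 for Polg, Cpsf1 for Nrf1, Rraga for Gabpa and Rfc3 for Tfb2m, with differences of 0.02 to 0.07. With 5 libraries and so many genes, near profiles are a description only.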

How the data were processed

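The authors' deposited gene tables give expected counts, which need not be whole, with TPM, FPKM and a mean transcript length for each library. Reads were aligned with Bowtie2 2.2.5 to mm10, per the submitters' processing notes, and libraries were TruSeq preparations of total RNA, per the labels. Neither the labels nor the file headers name the counting tool or annotation. Deposited FPKM values were not used. Expected counts were rounded and scaled to CPM with TMM factors (edgeR 4.0.16, R 4.3.3). Log2 ratios carry a pseudocount of 0.5 CPM, which understates the change of low genes, over genes whose mean reached 1 CPM in the libraries compared. Folds are ratios of scaled counts with exact Clopper-Pearson 95% intervals, and levels have exact Poisson 95% intervals. No test was run, since each group has 1 library. Gene positions are those of the GRCm38 annotation. The 10 genes, the lists, the markers and the motifs were chosen with earlier results of these data known. Besides the 10 genes, the text names from each list up to 4 genes with the largest ratio and a mean of at least 5 CPM, the 3 nearest profiles of a member, and genes behind small counts, chosen after their values were seen. Alternatives covered scaling (library totals, upper-quartile and DESeq2 1.42.0 size factors), TPM, pseudocount, filter, length trend and rounding. The log2 ratio, the counting interval of a fold and the removal of the length trend were tested on simulated data. Ratios and intervals were tested on Poisson draws, so the coverage of the intervals in amplified libraries was not tested.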

Additional observations from a re-analysis of the deposited data

How the results depend on the processing

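No paired analysis was possible because each group has 1 library, and for the same reason no replicate could be left out. The number of all genes past 1.5-fold followed the pseudocount and the filter on low counts. With a pseudocount of 2 CPM it was 830 for CypD (1452 as reported), 791 for mastoparan (1498) and 1660 for paraquat (2557). Without a filter it was 4534, 4222 and 5576, and 5146 for mastoparan against paraquat (2324) and 7387 for the day-8 against the day-4 control (4262). With a minimum of 5 CPM these were 433, 465, 1302, 1125 and 2818. Among the 10 genes, TPM put 1 past 1.5-fold with mastoparan (0 as reported), 4 with paraquat (1) and 3 for mastoparan against paraquat (1). Library totals put 2 past it with paraquat, and summing Tfb2m with Gm1818 put 0 past it for mastoparan against paraquat. Of the 50 ratios of the 10 genes, TPM changed the sign of 11 and library totals that of 3. No sign changed with DESeq2 or upper-quartile factors, either pseudocount, no filter, the length trend removed or fractional counts, nor in the 45 ratios left by the minimum of 5 CPM. The median of all genes with paraquat moved from -0.03 to -0.28 on TPM and to -0.13 with library totals. The cause was not tested. At 4 to 14 counts a library, Ppargc1b allows no fold to be read.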
